A study of Mus musculus with 12 samples.

Results

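The genes described here are 36 listed symbols that interferon is known to induce, out of 24132 gene symbols measured by RNA-seq in mouse neonatal tail tip fibroblasts. They were taken by symbol from a list of such genes, with no threshold on their values, and all 36 were found. The list was chosen with earlier results of these data known. Counts and shares over it therefore describe these genes and are not an independent test. The cells were knockout, heterozygous or wild type for Hotair, a long non-coding RNA gene of the HoxC cluster, with 2 RNA-seq libraries for each of the 3 genotypes. All 3 genotypes came from a C57BL6 backcross described as over 97% similar to that strain, so mice of every group share that background. No treatment with interferon, a virus or any other agent is named for any group. Nothing in the labels says whether the 2 libraries of a genotype came from separate animals or cultures, so the p-values speak for the spread among these libraries alone, and that spread may be technical. The question asked of the 36 genes is the order of the 3 genotypes, and above all whether heterozygous cells lay between knockout and wild-type cells.

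Interferons are secreted proteins that bind receptors at the cell surface and activate the kinases JAK1 and TYK2. For type I interferon, these phosphorylate STAT2, which joins IRF9 in a complex that binds the interferon-stimulated response element, a DNA motif in the promoters of the induced genes. The induced proteins include sensors of viral RNA, enzymes that degrade RNA or modify proteins, factors that hold viruses at membranes and parts of the antigen-processing machinery. Several of them, such as Stat2, Irf9 and Irf7, carry the signal themselves, and fibroblasts are known to keep a low basal level of many of these genes without infection.

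The response element core was looked for as GAAA, any 2 bases and GAAA again (or TTTC, any 2 bases and TTTC again for the other strand), overlapping matches included, in RefSeq promoter windows of 300 bases (250 before to 50 after the gene's start, build GRCm38.p6). Windows were at hand for 27 of the 36 genes, and 13 of these 27 held at least 1 match, against 3.99% of the 27025 genes of the promoter table. The 6 stretches printed run 150 bases before to 30 after the start, 5′ to 3′ on the gene's strand, with motif matches in capitals. Isg15, Bst2, Oas1a and Ifit1 are shown because their lowest levels were in heterozygous cells, Ifitm3 because it was the most abundant and had another order of genotypes, and Irf7 because it holds no match.
Isg15: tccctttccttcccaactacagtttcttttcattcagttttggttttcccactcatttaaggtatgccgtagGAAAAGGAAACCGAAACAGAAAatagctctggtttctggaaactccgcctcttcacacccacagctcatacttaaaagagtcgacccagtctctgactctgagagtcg
Bst2: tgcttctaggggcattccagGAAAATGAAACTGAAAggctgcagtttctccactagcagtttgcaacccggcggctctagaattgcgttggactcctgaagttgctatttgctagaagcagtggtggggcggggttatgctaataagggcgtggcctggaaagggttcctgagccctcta
Oas1a: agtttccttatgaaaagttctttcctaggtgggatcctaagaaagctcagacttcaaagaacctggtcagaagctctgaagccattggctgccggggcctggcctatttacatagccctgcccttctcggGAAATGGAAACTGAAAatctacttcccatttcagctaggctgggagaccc
Ifit1: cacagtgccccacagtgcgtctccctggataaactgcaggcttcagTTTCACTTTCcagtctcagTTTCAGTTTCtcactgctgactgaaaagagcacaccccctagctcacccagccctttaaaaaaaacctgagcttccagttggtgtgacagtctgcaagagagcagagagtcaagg
Ifitm3: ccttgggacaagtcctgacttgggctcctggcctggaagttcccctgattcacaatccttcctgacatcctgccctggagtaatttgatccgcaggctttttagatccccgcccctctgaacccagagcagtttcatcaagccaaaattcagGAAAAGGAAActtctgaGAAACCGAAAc
Irf7: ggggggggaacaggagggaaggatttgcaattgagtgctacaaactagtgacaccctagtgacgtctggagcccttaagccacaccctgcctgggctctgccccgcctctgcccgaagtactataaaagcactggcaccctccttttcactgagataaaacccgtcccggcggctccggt

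Isg15, at chr4:156200789-156200968 on the minus strand, held 3 overlapping matches, the first beginning 78 bases before the start. Bst2 (chr8:71537443-71537622, minus strand) had 2 overlapping matches from 130 bases before the start, and Oas1a (chr5:120907496-120907675, minus strand) had 2 overlapping matches from 20 bases before it. Ifit1 (chr19:34640739-34640918, plus strand) had 2 separate matches on the other strand, 104 and 85 bases before the start. In Ifitm3 (chr7:141010715-141010894, minus strand) both matches lay after the start, by 2 and 19 bases, and Irf7 (chr7:141266395-141266574, minus strand) had none in its window. A match was found in 10 of the 16 genes with a window whose heterozygous libraries were both below the other 4, and in 3 of the 11 other listed genes with a window. These are descriptions of letters in a window, and no match says only that these letters are not in it.

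Library depth, recovered from the step that 1 read adds to a gene's value, was 48.1M and 46.0M reads in knockout, 33.2M and 31.2M reads in heterozygous and 29.6M and 27.9M reads in wild-type libraries. Hotair was listed at 0 in both knockout libraries, at 0.213 and 0.172 RPKM in heterozygous libraries and at 0.247 and 0.183 RPKM in wild-type libraries. RPKM is the number of reads scaled to gene length and library size. The labels give no sex, but the heterozygous libraries stood apart in sex-linked genes. Xist, the RNA of the inactive X chromosome, had 0.0209 and 0.00606 RPKM in knockout, 4.65 and 4.46 RPKM in heterozygous and 0.0414 and 0.0479 RPKM in wild-type libraries. Summed over 4 Y-linked genes, the level was 10.9 and 11.4 RPKM in knockout, 0.240 and 0.300 RPKM in heterozygous and 5.12 and 5.27 RPKM in wild-type libraries. Heterozygous genotype and this difference in sex-linked RNA cannot be told apart in any result that follows. Fibroblast markers were present in every library (10 genes, summed level 4256 to 5115 RPKM, most of it Vim, Col1a1, Fn1 and Col1a2), but some differed between genotypes: Lum averaged 13.6 RPKM in knockout, 6.58 RPKM in heterozygous and 2.31 RPKM in wild-type cells, and Pdgfra 6.38 RPKM in knockout, 9.22 RPKM in heterozygous and 2.51 RPKM in wild-type cells. The sum over 15 macrophage and leukocyte markers was 56.3 and 56.8 RPKM in knockout, 8.84 and 8.06 RPKM in heterozygous and 10.9 and 9.50 RPKM in wild-type libraries.

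**Figure D1:**
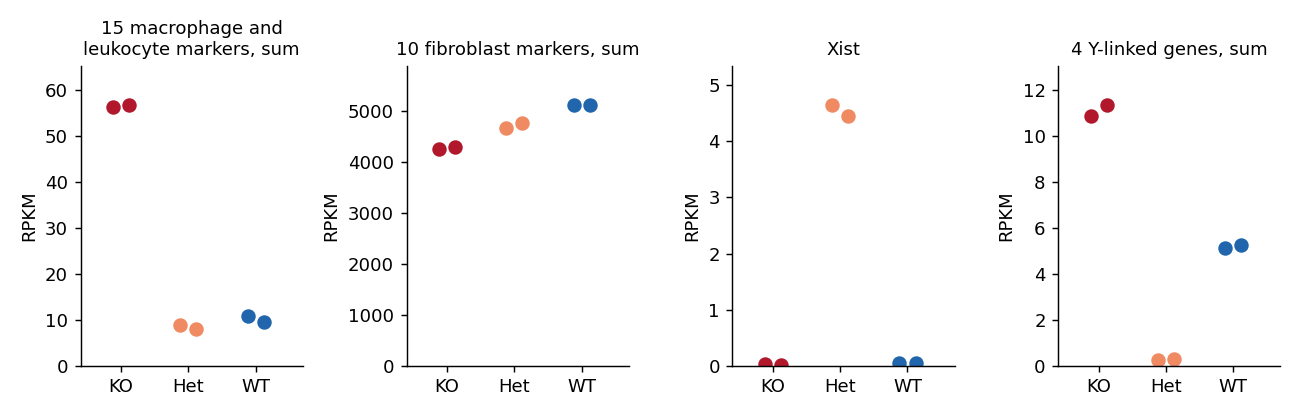
Summed level in RPKM of 15 macrophage and leukocyte markers and of 10 fibroblast markers, the level of Xist and the summed level of 4 Y-linked genes in each library, 1 point per library, with knockout (KO) left, heterozygous (Het) in the middle and wild type (WT) right. The leukocyte sum is highest in the 2 knockout libraries, and Xist is near 4.65 and 4.46 RPKM in the 2 heterozygous libraries only.

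Heterozygous cells had the lowest level of most interferon response genes. The heterozygous mean was below both other means for 30 of the 36 genes (83.3%), against 18.9% of all 18888 genes above 0. Both heterozygous libraries were below all 4 others for 23 of the 36 genes (63.9%, against 7.72% of all genes), and above all 4 others for 0 of them (13.6% of all genes). The mean lay between the other 2 for 5 genes (13.9%, against 51.6%), which were Ifit2, Ifitm3, Samhd1, Xaf1 and Ifi35, and was highest for Trim25 alone (2.78%, against 29.5%).

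Among the 23 genes with both heterozygous libraries lowest, knockout and wild type had no fixed order. The knockout libraries were above the wild-type ones for 9 genes (Irf9, Stat2, Ifih1, Dhx58, Ifit1, Gbp2, Gbp3, Ifi44 and Rtp4), an order seen in 2.75% of all genes, but in only 3 of the 36 after quantile normalization. They were below wild type for 8 genes (Isg15, Usp18, Oas1a, Oas3, Oasl1, Ifit3, Bst2 and Ifi27l2a; 2.65% of all genes). The groups overlapped for the remaining 6 (Irf7, Zbp1, Oas2, Mx2, Cmpk2 and Psmb8; 2.31% of all genes). A graded order of genotypes was less frequent: libraries ran knockout above heterozygous above wild type for Ifit2, Ifitm3, Samhd1 and Xaf1 (4 of 36, 11.1%, against 16.7% of all genes), and the opposite way for Ifi35 (1 of 36, 2.78%, against 7.65%).

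**Figure D2:**
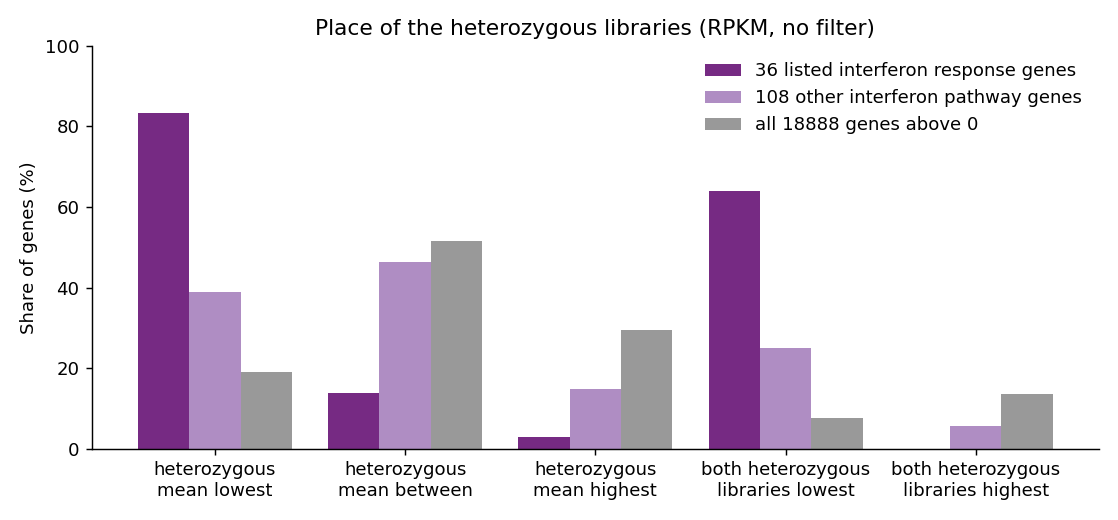
Share of genes in percent by the place of the heterozygous libraries among the 6, for the 36 listed interferon response genes, 108 other interferon pathway genes and all 18888 genes above 0. The heterozygous mean is lowest in 83.3% of the listed genes, 38.9% of the other pathway genes and 18.9% of all genes.

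**Figure D3:**
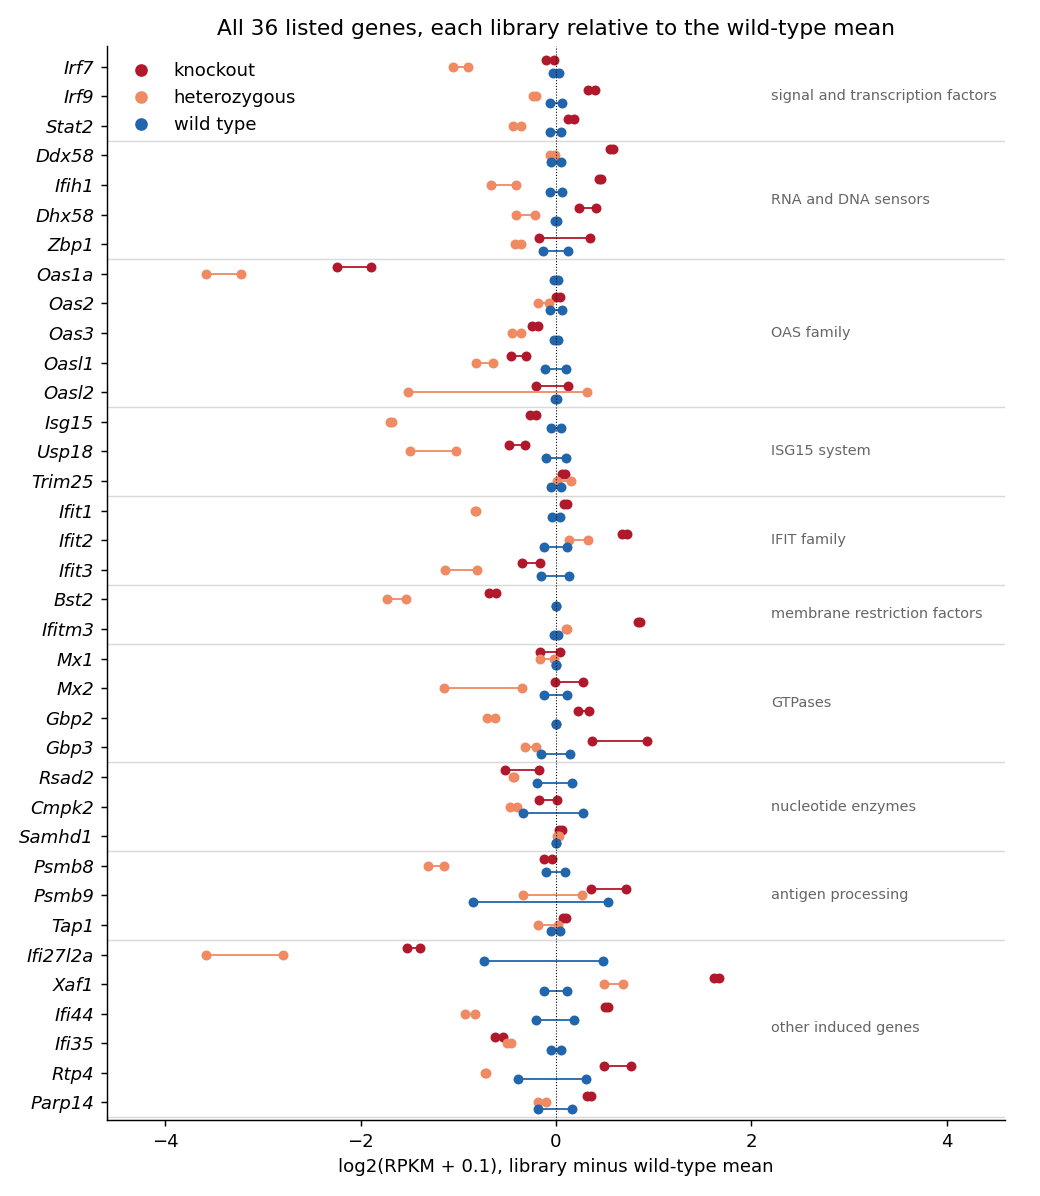
Level of each of the 36 genes in each library on the log2(RPKM + 0.1) scale, minus the wild-type mean, grouped by role; points are libraries and lines join the 2 libraries of a genotype. Heterozygous points lie left of the other 4 for 23 genes, and the added 0.1 RPKM holds genes near 0 close to the centre.

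Of the 36 genes, 19 reached 1 RPKM in at least 2 of the 6 libraries and entered the test, while 15 were below 1 RPKM in every library. Of the 19, 5 passed with no heterozygous library at 1 RPKM (Oas1a, Ifit1, Ifit3, Psmb8 and Ifi27l2a), so their difference from heterozygous cells was partly set by the filter. Oas1a passed through the 2 wild-type libraries alone, so its difference between knockout and wild type was partly set by it too. Among the 13 genes at 1 RPKM or more in all 6 libraries, the heterozygous mean was lowest for 8 and both heterozygous libraries were lowest for 6. The share of all genes was not taken at this cut. Split by the mean over all libraries, 13 of 18 genes at 1 RPKM or more had the lowest mean in heterozygous cells (72.2%, against 15.9% of 10535 genes). Both heterozygous libraries were lowest for 11 of these 18 genes (61.1%, against 8.79% of the 10535).

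In the limma fit over 10897 genes, 13 of the 19 were called lower and 2 higher in heterozygous than in wild-type cells (adjusted p under 0.05), where 17.1% of all genes were called lower and 35.5% higher. The median difference was -0.44 on the log2(RPKM + 1) scale for the 19 genes and 0.07 for all genes. In knockout against heterozygous cells, 15 of the 19 were called higher and 0 lower, against 26.4% and 25.4% of all genes, with medians of 0.53 for the 19 genes and -0.0014 for all genes. These comparisons share the heterozygous libraries. Oas1a, Ifit1, Ifit3, Psmb8 and Ifi27l2a, which passed with no heterozygous library at 1 RPKM, are in both counts, the 13 lower and the 15 higher. In knockout against wild-type cells, with medians of 0.05 for the 19 genes and 0.06 for all genes, 5 were called higher and 6 lower, against 40.6% and 26.6% of all genes. The number lower became 10 after quantile normalization, which also called more of all genes lower. Over all genes, the split leaned less to knockout after other scalings. Of 7324 calls, 60.4% were higher in knockout, against 46.7% of 6966 after quantile normalization and 47.7% of 7451 after scaling to equal medians. For heterozygous against wild type the share of calls that were higher was 67.5%, against 51.1% and 46.5% after those scalings.

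A single contrast set the heterozygous level against the midpoint of knockout and wild type. It was called lower for 16 of the 19 genes and higher for 0, against 14.5% and 22.4% of all genes, with medians of -0.45 for the 19 genes and 0.03 for all genes. A level below the midpoint need not be the lowest. The 16 include Ifitm3 and Xaf1, both called higher in heterozygous than in wild-type cells. They also include Ifi35, with its heterozygous mean between the others, and Ddx58, with no call between heterozygous and wild type. Of the 13 genes at 1 RPKM or more in every library, 10 were called lower, with no share of all genes taken at that cut. Over all genes, 60.7% of these calls were higher than the midpoint, against 51.6% with quantile-normalized and 45.5% with median-scaled values. Tap1, Samhd1 and Trim25 were the 3 without a call, though Tap1 was called lower without heterozygous library 2 (adjusted p = 0.0454). The call of Xaf1 (-0.22 ± 0.06, adjusted p = 0.0311) was lost in 6 of 14 alternatives, and that of Ifi35 (-0.18 ± 0.04, adjusted p = 0.0148) without heterozygous library 2 (adjusted p = 0.0874). Both steps were called, with heterozygous cells below wild-type cells and knockout cells above heterozygous cells, for 12 of the 19 (63.2%, against 4.56% of all genes). The 12 include Oas1a, Ifit1, Ifit3, Psmb8 and Ifi27l2a, whose place was partly set by the filter. Both steps were called with heterozygous cells on top for 0 of the 19 (8.64% of all genes), and upward for Ifitm3 and Xaf1 (12.1% of all genes).

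**Figure D4:**
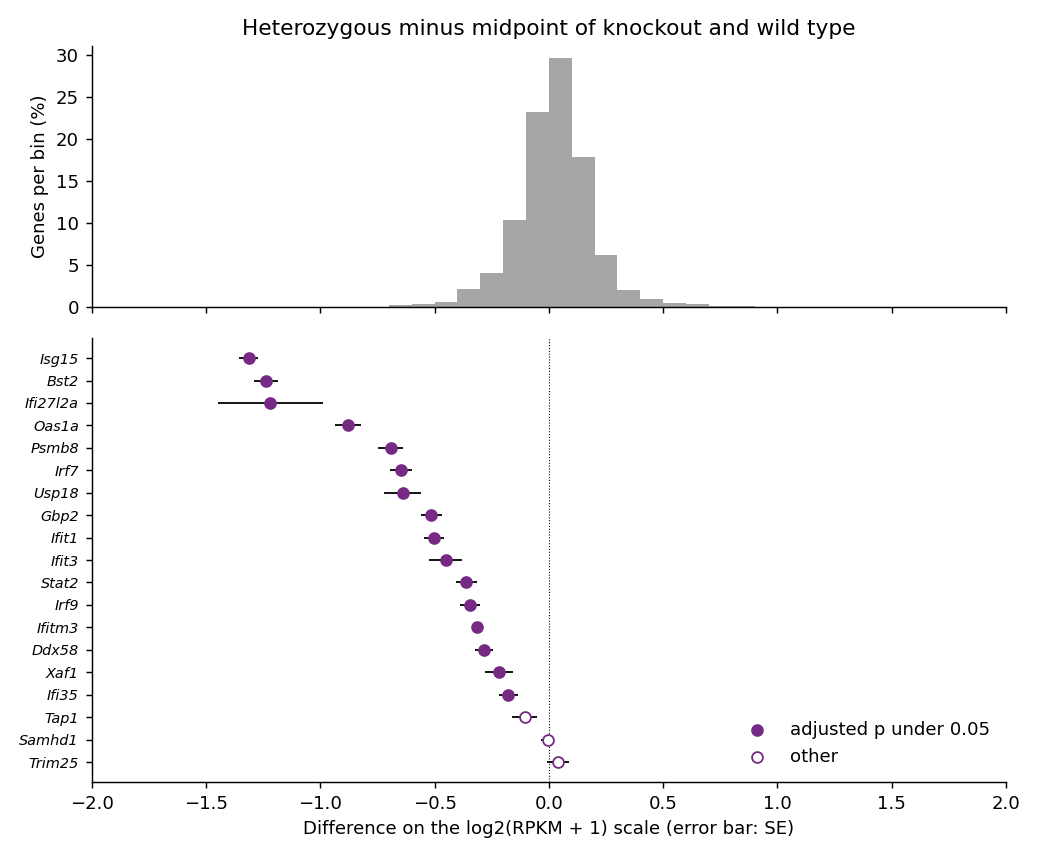
Difference between the heterozygous level and the midpoint of knockout and wild type on the log2(RPKM + 1) scale. The upper panel gives the share of all tested genes per bin in percent, and the lower panel the 19 tested genes with their SE, filled where the adjusted p was under 0.05. The 16 filled genes all lie below 0, which places heterozygous below the midpoint but not always lowest.

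The 3 genes that carry the signal or switch on transcription were all lowest in heterozygous cells. Irf7, the factor that amplifies type I interferon production, had 2.50 and 2.65 RPKM in knockout, 1.39 and 1.25 RPKM in heterozygous and 2.63 and 2.74 RPKM in wild-type libraries. Knockout and wild-type libraries overlapped and both heterozygous libraries were well below them: the difference was -0.67 ± 0.06 (log2, SE; adjusted p = 8.27e-05) between heterozygous and wild type and 0.62 ± 0.06 (adjusted p = 0.000132) between knockout and heterozygous. Knockout minus wild type was -0.04 ± 0.06 (adjusted p = 0.498), but -0.25 after quantile normalization (adjusted p = 0.00575). Irf9, the DNA-binding partner of STAT2, had 5.95 and 6.26 RPKM in knockout, 3.97 and 4.06 RPKM in heterozygous and 4.90 and 4.51 RPKM in wild-type libraries, a separate range for each genotype with knockout on top (knockout minus wild type 0.32 ± 0.05, adjusted p = 0.000986). Its lower level in heterozygous than in wild-type cells (adjusted p = 0.0177) missed the threshold without heterozygous library 1 (adjusted p = 0.0719) or wild-type library 1 (adjusted p = 0.0855). Stat2 had 3.45 and 3.59 RPKM in knockout, 2.30 and 2.44 RPKM in heterozygous and 3.03 and 3.28 RPKM in wild-type libraries. Its heterozygous libraries were lowest (-0.30 ± 0.05 against wild type, adjusted p = 0.00272), while knockout minus wild type was 0.12 ± 0.05 (adjusted p = 0.0716), or -0.056 with quantile-normalized values.

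Of the sensors, only Ddx58, which encodes the RNA sensor RIG-I, was abundant enough to test. It had 7.84 and 7.68 RPKM in knockout, 4.97 and 5.14 RPKM in heterozygous and 5.01 and 5.37 RPKM in wild-type libraries. Knockout libraries stood above the others, and the heterozygous and wild-type libraries overlapped (knockout minus heterozygous 0.53 ± 0.05, adjusted p = 0.000115; heterozygous minus wild type -0.03 ± 0.05, adjusted p = 0.591). Ifih1, which encodes the long double-stranded RNA sensor MDA5, had 0.495 and 0.489 RPKM in knockout, 0.226 and 0.172 RPKM in heterozygous and 0.314 and 0.352 RPKM in wild-type libraries. Dhx58, the related helicase LGP2, had 0.870 and 0.762 RPKM in knockout, 0.450 and 0.531 RPKM in heterozygous and 0.638 and 0.628 RPKM in wild-type libraries. Both ran in the same order as Irf9, below the level tested. Zbp1, a sensor of Z-form nucleic acids, stayed at or below 0.287 RPKM in every library.

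**Figure D5:**
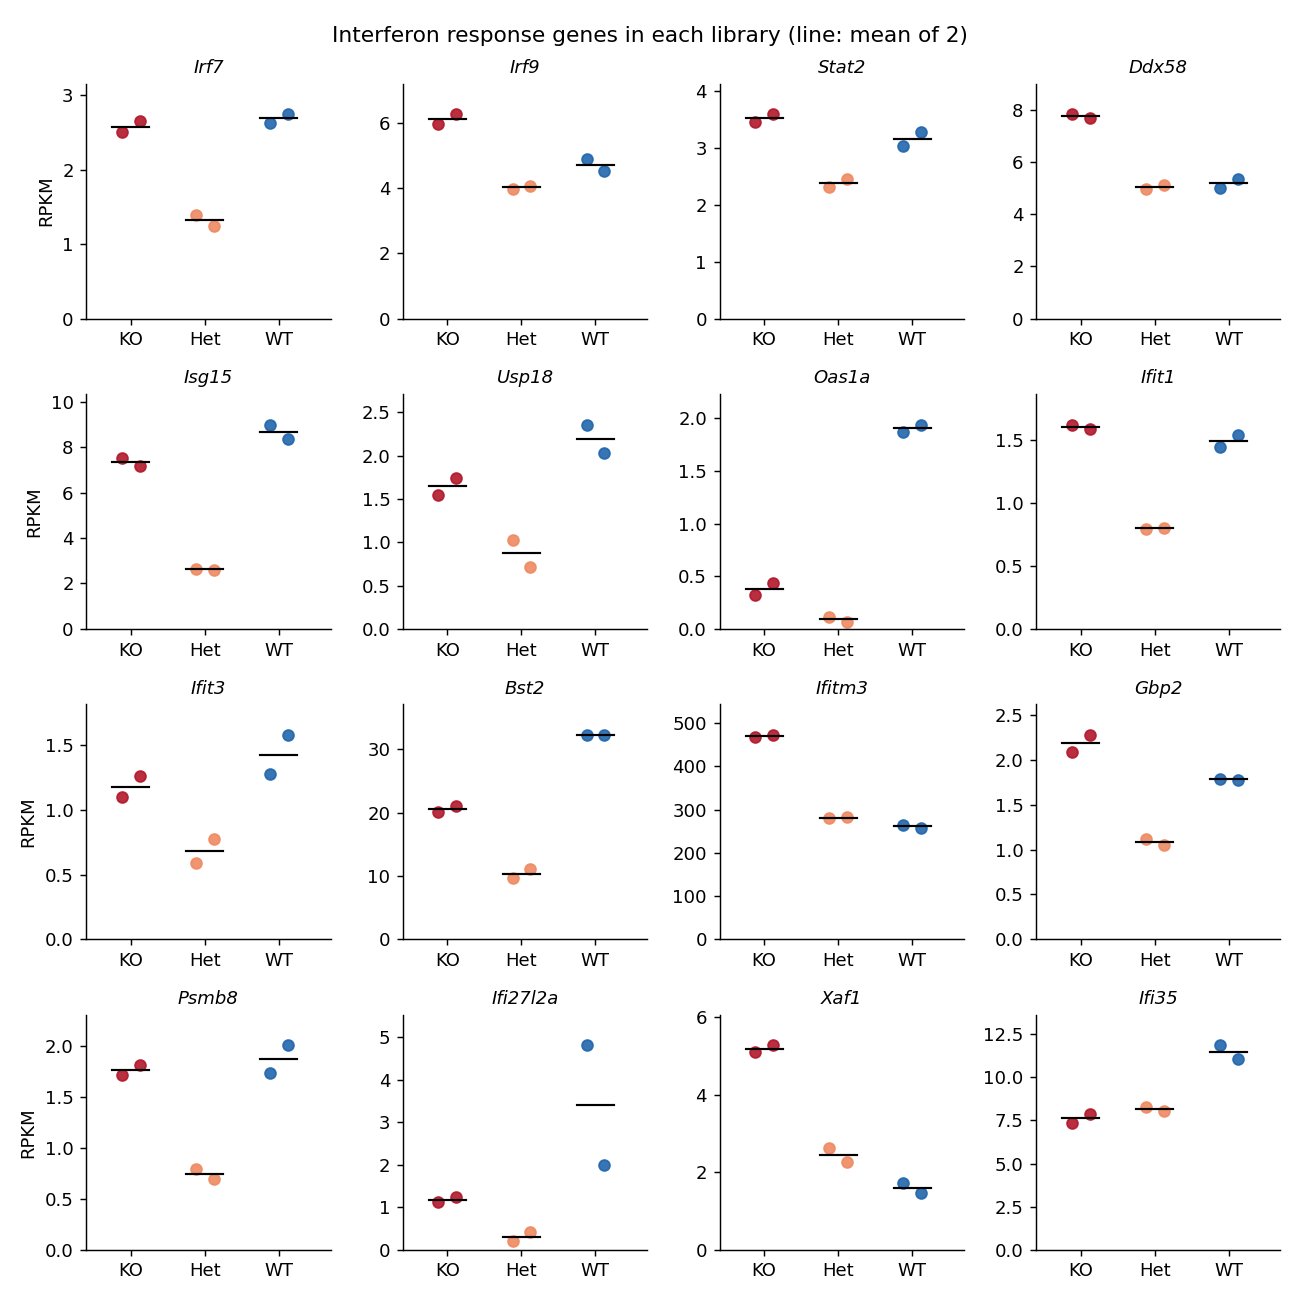
RPKM in each library for 16 interferon response genes, 1 point per library and a line at the mean of 2, with knockout (KO) left, heterozygous (Het) in the middle and wild type (WT) right. Heterozygous points are lowest in most panels, whereas Ifitm3 and Xaf1 descend and Ifi35 ascends across the genotypes as drawn.

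Of the 19 tested genes, Isg15 lay farthest below the midpoint (-1.31 ± 0.04, adjusted p = 1.67e-06). Isg15, a ubiquitin-like protein attached to other proteins, had 7.51 and 7.17 RPKM in knockout, 2.63 and 2.60 RPKM in heterozygous and 8.98 and 8.34 RPKM in wild-type libraries. The heterozygous libraries, with at least 33.1 and 30.7 reads on the gene, were far below the other 4, and knockout was slightly below wild type without overlap. The mean RPKM was 2.81-fold higher in knockout than in heterozygous cells. On the log2(RPKM + 1) scale of the test, which gives smaller folds, the difference was 1.21 ± 0.05 (adjusted p = 3.77e-06), and heterozygous minus wild type was -1.42 ± 0.05 (adjusted p = 1.23e-06). Knockout minus wild type was smaller at -0.21 ± 0.05 (adjusted p = 0.00603). Usp18, the protease that removes ISG15 and dampens receptor signalling, had 1.55 and 1.75 RPKM in knockout, 1.03 and 0.717 RPKM in heterozygous and 2.36 and 2.03 RPKM in wild-type libraries. It had the order of Isg15, with heterozygous minus wild type at -0.77 ± 0.09 (adjusted p = 0.000463). Its knockout minus wild type, -0.27 ± 0.09 (adjusted p = 0.0339), was lost in 5 of 14 alternatives. Trim25, a ubiquitin ligase that acts on RIG-I, ranged only between 4.89 and 5.67 RPKM with overlapping groups and no call in any contrast.

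Among the oligoadenylate synthetases, enzymes whose product activates RNase L, Oas1a was tested. It had 0.325 and 0.440 RPKM in knockout, 0.115 and 0.0668 RPKM in heterozygous and 1.87 and 1.94 RPKM in wild-type libraries. Both mutant genotypes were far below wild type, the only genotype through which Oas1a passed the filter, and heterozygous was below knockout. Knockout minus wild type was -1.07 ± 0.07 (adjusted p = 8.29e-06) and heterozygous minus wild type -1.41 ± 0.07 (adjusted p = 5.12e-06). The step between knockout and heterozygous, 0.34 ± 0.07 (adjusted p = 0.00404), was 0.09 (adjusted p = 0.245) after quantile normalization. Oas1a has a near-identical neighbour, Oas1g, and reads may be shared between them, so the split between the pair is uncertain. Oasl2 had discordant heterozygous libraries, 0.227 and 1.06 RPKM, against 0.916 and 0.709 RPKM in knockout and 0.828 and 0.839 RPKM in wild type. Oasl1, which in mouse limits translation of Irf7, had 0.126 and 0.151 RPKM in knockout, 0.0984 and 0.0753 RPKM in heterozygous and 0.188 and 0.233 RPKM in wild-type libraries. Oas2 and Oas3 were at most 0.0571 RPKM in any library, with the heterozygous mean lowest for both.

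The IFIT proteins bind foreign RNA and block its translation. Ifit1 and Ifit3 passed the filter with no heterozygous library at 1 RPKM, so their differences from heterozygous cells were partly set by it. Ifit1 had 1.62 and 1.59 RPKM in knockout, 0.795 and 0.801 RPKM in heterozygous and 1.44 and 1.54 RPKM in wild-type libraries. Its heterozygous libraries were nearly equal and well below the other 4 (heterozygous minus wild type -0.47 ± 0.05, adjusted p = 0.000315). Knockout minus wild type was 0.06 ± 0.05 (adjusted p = 0.305), and -0.16 after quantile normalization (adjusted p = 0.0247). Ifit3 had 1.10 and 1.26 RPKM in knockout, 0.593 and 0.772 RPKM in heterozygous and 1.28 and 1.58 RPKM in wild-type libraries, with heterozygous again lowest (-0.53 ± 0.09 against wild type, adjusted p = 0.00191). Knockout minus heterozygous, 0.38 ± 0.09 (adjusted p = 0.00870), missed the threshold without knockout library 2 (adjusted p = 0.0592). Its knockout minus wild type, -0.15 ± 0.09 (adjusted p = 0.149), was -0.40 after quantile normalization (adjusted p = 0.00773). Ifit3 also has a close paralogue, so its reads may be shared. Ifit2 differed from both: it had 0.841 and 0.808 RPKM in knockout, 0.615 and 0.526 RPKM in heterozygous and 0.515 and 0.423 RPKM in wild-type libraries, highest in knockout, though under the filter.

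The membrane restriction factors went different ways in knockout cells. Bst2, or tetherin, which holds budding virus at the surface, had 20.1 and 21.0 RPKM in knockout, 9.63 and 11.1 RPKM in heterozygous and 32.3 and 32.3 RPKM in wild-type libraries. Each genotype had its own range, heterozygous lowest and wild type highest. Heterozygous minus wild type was -1.55 ± 0.06 (adjusted p = 2.16e-06), knockout minus heterozygous 0.92 ± 0.06 (adjusted p = 3.16e-05) and knockout minus wild type -0.63 ± 0.06 (adjusted p = 6.87e-05). Ifitm3, which blocks virus entry at endosomes, was the most abundant of the 36, with 469 and 473 RPKM in knockout, 280 and 283 RPKM in heterozygous and 265 and 257 RPKM in wild-type libraries. Knockout was far above the others and heterozygous slightly above wild type. Knockout minus wild type was 0.85 ± 0.02 (adjusted p = 6.50e-08), and heterozygous minus wild type 0.11 ± 0.02 (adjusted p = 0.00201), a call lost after scaling to equal medians. Ifitm3 shares sequence with Ifitm2 next to it, so reads may be shared.

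Of the GTPases, Gbp2, a guanylate-binding protein that targets intracellular pathogens, passed the filter. It had 2.10 and 2.28 RPKM in knockout, 1.12 and 1.06 RPKM in heterozygous and 1.79 and 1.78 RPKM in wild-type libraries. The heterozygous level was lowest (-0.42 ± 0.05 against wild type, adjusted p = 0.000657). The rise of knockout over wild type, 0.20 ± 0.05 (adjusted p = 0.0139), was not kept after quantile normalization, which gave -0.026, and was lost without knockout library 2 (adjusted p = 0.105). Gbp3 lay below the filter, with 0.538 and 0.331 RPKM in knockout, 0.169 and 0.191 RPKM in heterozygous and 0.201 and 0.269 RPKM in wild-type libraries. Mx1, which inhibits influenza virus and is known to be defective in C57BL6 mice, was at most 0.0146 RPKM in any library, and Mx2 at most 0.167 RPKM. The nucleotide enzymes held no call: Samhd1, which degrades deoxynucleotides, had 11.9 and 11.7 RPKM in knockout, 11.6 and 11.5 RPKM in heterozygous and 11.4 and 11.4 RPKM in wild-type libraries. Rsad2, or viperin, and its neighbour Cmpk2 were at most 0.134 RPKM.

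In antigen processing, Psmb8, a catalytic subunit of the immunoproteasome, had 1.71 and 1.81 RPKM in knockout, 0.788 and 0.693 RPKM in heterozygous and 1.74 and 2.00 RPKM in wild-type libraries. Knockout and wild-type libraries overlapped and heterozygous libraries were lowest (heterozygous minus wild type -0.72 ± 0.07, adjusted p = 0.000131; knockout minus heterozygous 0.67 ± 0.07, adjusted p = 0.000208). Psmb8 passed the filter with no heterozygous library at 1 RPKM, so these differences were partly set by it. Between knockout and wild type the difference was -0.05 ± 0.07 (adjusted p = 0.490), and -0.29 after quantile normalization (adjusted p = 0.00746). Tap1, the peptide transporter, had 4.76 and 4.85 RPKM in knockout, 3.95 and 4.58 RPKM in heterozygous and 4.37 and 4.66 RPKM in wild-type libraries, with no call in any contrast. Psmb9, the other catalytic subunit listed, was at most 0.412 RPKM and its groups overlapped.

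Other induced genes included the clearest exceptions. Xaf1, a pro-apoptotic partner of XIAP, had 5.11 and 5.27 RPKM in knockout, 2.62 and 2.27 RPKM in heterozygous and 1.73 and 1.45 RPKM in wild-type libraries. Its levels rose in the order wild type, heterozygous, knockout. Heterozygous minus wild type was 0.41 ± 0.07 (adjusted p = 0.00279) and knockout minus heterozygous 0.85 ± 0.07 (adjusted p = 0.000113). Ifi35, which binds the related protein NMI, had 7.38 and 7.86 RPKM in knockout, 8.27 and 8.05 RPKM in heterozygous and 11.9 and 11.1 RPKM in wild-type libraries. Both mutant genotypes were below wild type (knockout minus wild type -0.53 ± 0.05, adjusted p = 5.61e-05), and knockout minus heterozygous was -0.09 ± 0.05 (adjusted p = 0.164).

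Ifi27l2a, a small interferon-induced membrane protein, had 1.12 and 1.23 RPKM in knockout, 0.193 and 0.405 RPKM in heterozygous and 4.81 and 2.00 RPKM in wild-type libraries. The wild-type libraries were far apart, but the groups did not overlap. Ifi27l2a passed the filter with no heterozygous library at 1 RPKM, so its differences from heterozygous cells were partly set by it. Heterozygous minus wild type was -1.69 ± 0.26 (adjusted p = 0.00165), and knockout minus heterozygous, 0.75 ± 0.26, was just under the threshold (adjusted p = 0.0480) and above it in 10 of 14 alternatives, among them each fit without 1 knockout or 1 heterozygous library. Knockout minus wild type, -0.94 ± 0.26 (adjusted p = 0.0151), missed the threshold without knockout library 1 (adjusted p = 0.0614) and was -0.47 without wild-type library 1. Below the filter, Ifi44 had 0.604 and 0.586 RPKM in knockout, 0.154 and 0.174 RPKM in heterozygous and 0.321 and 0.450 RPKM in wild-type libraries. Rtp4, a chaperone of membrane receptors, had 0.827 and 1.03 RPKM in knockout, 0.301 and 0.301 RPKM in heterozygous and 0.717 and 0.406 RPKM in wild-type libraries. Both ran knockout, wild type, heterozygous by their libraries. Parp14, an ADP-ribosyltransferase, was at most 0.502 RPKM, highest in knockout.

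Means at least 2-fold apart on the log2(RPKM + 1) scale, with no overlap of libraries, were counted without a test. They were found for 4 of the 19 genes between heterozygous and wild type, all lower in heterozygous (Isg15, Bst2, Oas1a and Ifi27l2a). Of all genes, 0.422% were lower by this measure. Oas1a and Ifi27l2a had passed the filter with no heterozygous library at 1 RPKM. Between knockout and heterozygous it was Isg15 alone (0.743% of all genes in either direction), and between knockout and wild type Xaf1 upward and Oas1a downward (2.56% of all genes in either direction), where Oas1a was tested only because of its wild-type level.

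Interferon genes themselves were barely detected. Of 17 interferon ligand genes in the table, 12 were at 0 in every library. Ifna6, Ifna12 and Ifna13 had at most 0.0628 RPKM, in 1 wild-type library, and Ifne had 0.0483 RPKM in 1 heterozygous library. Ifnz alone passed the filter, with 3.53 and 3.54 RPKM in knockout, 4.31 and 3.91 RPKM in heterozygous and 6.03 and 6.42 RPKM in wild-type libraries, lower in both mutant genotypes. Of the receptor genes, 5 of 6 passed and 0 of 5 were called between heterozygous and wild type, by limma. Ifnar1, the signalling chain for type I interferon, had 6.88 and 6.79 RPKM in knockout, 7.11 and 7.20 RPKM in heterozygous and 7.41 and 6.96 RPKM in wild-type libraries. Its partner Ifnar2 had 7.56 and 8.41 RPKM in knockout, 6.81 and 6.68 RPKM in heterozygous and 6.42 and 6.49 RPKM in wild-type libraries, higher in knockout than in wild type (0.27 ± 0.05, adjusted p = 0.00275). Of the 5 receptor genes, Ifnar2 alone was called higher in knockout than in wild type (40.6% of all genes). Called lower were 3 (26.6% of all genes): Ifngr2 (-0.31 ± 0.03, adjusted p = 0.000149), Il10rb (-0.18 ± 0.04, adjusted p = 0.00806) and Ifngr1 (-0.12 ± 0.04, adjusted p = 0.0380).

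Of 15 signal carriers and regulators, 13 passed, of which 5 were called higher and 0 lower in heterozygous than in wild-type cells, where 35.5% of all genes were called higher and 17.1% lower, so the higher share was near that of all genes. Jak2, a kinase of the type II interferon receptor, averaged 2.43 ± 0.145 RPKM in knockout, 2.07 ± 0.0609 RPKM in heterozygous and 1.08 ± 0.0902 RPKM in wild-type cells (SD, n = 2 each). Socs1, another inhibitor of these kinases, had 3.07 and 3.93 RPKM in knockout, 2.89 and 3.04 RPKM in heterozygous and 1.80 and 2.01 RPKM in wild-type libraries. Both were lowest in wild type. Jak1 had 36.4 and 36.1 RPKM in knockout, 29.5 and 29.7 RPKM in heterozygous and 28.9 and 29.4 RPKM in wild-type libraries, highest in knockout. Socs3, an inhibitor of JAK kinases, averaged 11.3 ± 0.254 RPKM in knockout, 8.94 ± 0.0934 RPKM in heterozygous and 5.78 ± 0.183 RPKM in wild-type cells (SD, n = 2 each), and was called higher at both steps. Tyk2 and Stat3 had no call in any contrast.

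Of 69 interferon-stimulated genes outside the 36, 45 passed the filter, 5 of them with no heterozygous library at 1 RPKM. Of these 5, Ccl5 and Ifi205 passed through knockout alone and Oas1g through wild type alone. In heterozygous against wild-type cells, 20 were called lower and 5 higher, where 17.1% of all genes were lower and 35.5% higher. In knockout against heterozygous cells, 24 were higher and 2 lower, where 26.4% of all genes were higher and 25.4% lower. Against the midpoint, 21 were lower and 1 higher, where 14.5% of all genes were lower and 22.4% higher. Lgals3bp, a secreted glycoprotein, had 55.3 and 57.1 RPKM in knockout, 36.9 and 36.5 RPKM in heterozygous and 72.9 and 72.4 RPKM in wild-type libraries. Apol9a had 6.55 and 5.97 RPKM in knockout, 4.10 and 4.77 RPKM in heterozygous and 10.7 and 11.0 RPKM in wild-type libraries; it and its near-identical copy Apol9b may share reads. Both had the order of Isg15 and Bst2. Eif2ak2, the RNA-activated kinase PKR, was instead highest in knockout, with 3.50 and 3.29 RPKM, against 1.48 and 1.44 RPKM in heterozygous and 1.46 and 1.94 RPKM in wild-type libraries. Ifi204 and Ifi205, members of the DNA-sensing Ifi200 family, were also highest in knockout, with means of 4.17 and 1.63 RPKM, against 1.76 and 0.161 RPKM in heterozygous and 1.65 and 0.276 RPKM in wild-type cells. Lgals9 ran the other way, with means of 17.3 RPKM in knockout, 21.4 RPKM in heterozygous and 29.3 RPKM in wild-type cells.

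Fewer cells of a type and less RNA per cell cannot be told apart in these bulk libraries. Of the 15 macrophage and leukocyte markers, 13 were above the other 4 libraries in both knockout libraries, as were 16 of the 36 interferon response genes (44.4%, against 28.1% of all genes). The same marker sum was 8.84 and 8.06 RPKM in heterozygous and 10.9 and 9.50 RPKM in wild-type libraries. Of the 15 markers, 5 were lowest in both heterozygous libraries (7.72% of all genes). The tested markers were mixed between these genotypes. By limma, Lyz2 was called lower in heterozygous than in wild-type cells (-0.89, adjusted p = 1.82e-05). Cd68 (0.38, adjusted p = 0.00304) and Csf1r (0.20, adjusted p = 0.0470) were called higher, and Tyrobp, Fcer1g, Laptm5 and Cd14 had no call. The sum over 5 Schwann cell markers was 14.2 and 14.8 RPKM in knockout, 31.4 and 30.6 RPKM in heterozygous and 25.5 and 25.4 RPKM in wild-type libraries, and 4 of the 5 were highest in both heterozygous libraries (13.6% of all genes). Of the 5 plasmacytoid dendritic cell markers, Siglech and Ly6d were at 0 in every library, and nearly all of the sum was Tcf4, with 9.01 and 9.21 RPKM in knockout, 8.99 and 8.71 RPKM in heterozygous and 5.03 and 4.91 RPKM in wild-type libraries. At 0 in every library were also Cd3e, Cd3g, Ms4a1 and Ncr1 among those of T, B and NK cells. The part of these cell types in the levels of the 36 genes was not tested.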

How the data were processed

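Poly(A) RNA went into dUTP libraries, which mark the strand, per the labels' protocols. TopHat and the mm9 build are named in the submitters' processing notes. The deposited table holds RPKM made by the authors, 1 value per symbol and library; the unit was identified from the values, and 6 ChIP-seq libraries are not analysed here. Whether reads were counted by strand, and with which annotation version, is not stated in those sources. Read numbers on a gene are lower bounds, found from the smallest gene length (tolerance 0.002 bases, reads of 74 bases) that makes aligned bases whole. Errors are the SE of the model.

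Values were taken as log2(RPKM + 1), which understates the change of low genes, for the 10897 genes that reached 1 RPKM in at least 2 libraries, and fitted with limma 3.58.1 in R 4.3.3 (3 group means, eBayes with an intensity trend, two-sided, 3 residual degrees of freedom, Benjamini-Hochberg over all genes, threshold 0.05). The fit was tested on simulated data. Between the libraries of a genotype, the mean squared z against counting noise was 1.71 in knockout, 1.45 in heterozygous and 1.26 in wild type, and the robust variance ratio 0.873 in knockout, 0.876 in heterozygous and 0.813 in wild type. The typical gene thus varied no more than counting noise, and 42 to 53 genes per genotype exceeded 4 SD. Because read numbers are lower bounds, these ratios may be too low. The check cannot tell technical repeats from separate samples. The libraries were kept as 2 in the fit, and the p-values rest on that choice. The members and lists were chosen with earlier results of these data known. Of the 36, values per library are given for tested genes at least 0.5 apart on the log2 scale between 2 genotypes and for those the order turns on. Outside the 36, signal genes are given in part, and Lgals3bp, Apol9a, Eif2ak2, Ifi204, Ifi205 and Lgals9 are among the 8 other stimulated genes with the largest distances. Ccl5, Oas1g and the values of other low genes and markers were printed after they had been seen. Alternatives were other pseudocounts, filters and scalings, no trend, only the groups compared, a replicate block and leaving out each library. Promoters are RefSeq's, GRCm38.p6, and were not set beside mm9 coordinates.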

Additional observations from a re-analysis of the deposited data

How the results depend on the processing

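The heterozygous mean stayed lowest for most of the 36 genes: 30 as reported, 27 to 29 without 1 library, 31 after quantile normalization and 33 after median scaling. This and the counts below are given without the share of all genes at the same setting. Calls over all genes moved with the setting too: 60.7% of midpoint calls were higher as reported, 51.6% after quantile normalization and 45.5% after median scaling. The counts therefore do not say how far the listed genes moved apart from all genes. With a filter at 5 RPKM, which tests 9 of the 36, the calls became 3 lower in knockout than wild type, 4 lower in heterozygous than wild type, 6 higher in knockout than heterozygous, 7 lower than the midpoint and 3 with heterozygous below both, and for the other pathway genes 11 and 8 higher in knockout and in heterozygous than in wild type and 16 higher in knockout than heterozygous. Without a filter 8 were higher in knockout than wild type. Quantile normalization gave 10 lower in knockout than wild type, 3 with heterozygous lowest and knockout above wild type, and for the other pathway genes 6 higher in heterozygous than wild type and 2 above the midpoint. Median scaling gave 1 higher in heterozygous than wild type, and 7 and 3 for those pathway counts. Means 2-fold apart between knockout and wild type, heterozygous and wild type, and knockout and heterozygous numbered 0, 1 and 0 with a pseudocount of 5, and 1 and 2 for knockout and for heterozygous against wild type with the 5 RPKM filter. Knockout against heterozygous had 5 with a pseudocount of 0.1. Leaving out 1 library gave 4 to 5 higher and 4 to 6 lower in knockout than wild type, 12 to 13 lower in heterozygous than wild type, 13 to 15 higher in knockout than heterozygous, 15 to 16 below the midpoint, 10 to 12 with heterozygous below both, and 1 to 2 genes 2-fold apart between knockout and heterozygous (2 without heterozygous library 2). The other pathway genes then had 8 to 12 higher in heterozygous than wild type (8 without heterozygous library 1) and 1 to 6 above the midpoint (1 without knockout library 1 or either heterozygous library). Differences between replicates 1 and 2 were hardly correlated between genotypes (correlations 0.065, -0.062 and -0.088). This cannot exclude that replicate numbers pair the samples, because the typical gene varied no more than counting noise. A replicate block gave 16 below the midpoint, as reported.

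Of the single differences, small ones changed sign. After quantile normalization, knockout minus wild type was -0.056 for Stat2, -0.050 for Trim25, -0.16 for Ifit1, -0.026 for Gbp2 and -0.061 for Tap1, and heterozygous minus wild type -0.011 for Trim25 and -0.040 for Samhd1. Median scaling gave knockout minus wild type of -0.0099 for Trim25, -0.039 for Samhd1 and -8.4e-05 for Tap1, and heterozygous minus wild type of -0.063 for Samhd1. Leaving out 1 library gave heterozygous minus wild type of -0.074 to 0.011 for Ddx58 and -0.15 to 0.019 for Tap1, knockout minus wild type of -0.12 to 0.013 for Psmb8, knockout minus heterozygous of -0.069 to 0.054 for Trim25, and a distance to the midpoint of -0.021 to 0.10 for Trim25 and -0.016 to 0.0041 for Samhd1. The cause was not tested. At depths of 27.9M to 48.1M reads, genes under 1 RPKM are given as levels only.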
